A study of Saccharomyces cerevisiae with 14 samples.

Results

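The 10 genes described here make inositol, import it, make phospholipids of the yeast membrane or regulate these steps. The set was INO1 (YJL153C), ITR1 (YDR497C), ITR2 (YOL103W), INO2 (YDR123C), INO4 (YOL108C), OPI1 (YHL020C), CHO1 (YER026C), PSD1 (YNL169C), CHO2 (YGR157W) and OPI3 (YJR073C). They were 10 of the 5449 S. cerevisiae genes measured, each was found by its gene symbol in the annotation of the array, and each was read by 1 probe set of the plain kind, which is designed to match a single transcript. The genes were chosen by their place in the pathway together with their measured levels over the 3 stages in both strains, in which the strong early increase of INO1 stood out. Their changes over the stages of the fermentation are therefore given as a description with no test, whereas the differences between the strains were tested.

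In yeast, the Ino2p and Ino4p proteins pair on a short promoter element and activate the genes of phospholipid synthesis. The Opi1p repressor shuts these genes down when inositol is plentiful, and it is held at the endoplasmic reticulum by phosphatidic acid when inositol is scarce. INO1 is the classic target of this switch, because inositol added to the medium represses it and removal of inositol induces it.

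The wine yeast M2, a MATa/α diploid, was compared with M2 nsf1∆, the same strain with both copies of NSF1 replaced by kanMX. NSF1 encodes a zinc finger transcription factor. Both strains fermented sterile-filtered Riesling grape must without shaking, and cells were collected 24 h after inoculation, when 20% of the sugars were fermented and when 85% were fermented. In all 14 arrays were made, with 2 per strain for each of the first 2 stages and 3 per strain for the last. The labels call the arrays of a group biological replicates, and the methods speak of fermentations in biological duplicate. For 85% the paper's figure legend speaks of triplicate samples of each strain. The p-values measure the spread between these arrays, and arrays of different stages may come from the same vessel. The mutant is 1 disruption of 1 industrial strain, and it was not complemented here.

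Values are RMA log2 intensities, so a difference of 1 is a doubling, and they compare arrays for the same gene but not one gene with another. A whole culture was sampled, so that fewer cells expressing a gene and less RNA per cell cannot be told apart. Array medians over S. cerevisiae ran from 8.87 to 8.95. Probe sets for S. pombe genes gave the background, with a median of 3.06 and a 95th percentile of 3.62, and every value of the 10 genes was above it. NSF1 itself read 8.92 to 13.19 on the M2 arrays and 2.95 to 5.90 on the M2 nsf1∆ arrays, so the strains did not overlap. The highest mutant value, 5.90, was that of replicate 3 at 85%.

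One array stood apart in a way that touches the results below. M2 nsf1∆ replicate 2 at 24 h lay 28.0% of the way along the change that M2 made between 24 h and 20%, measured over the 5488 probe sets other than those of the 10 genes, whereas replicate 1 lay 9.28% of the way and the M2 arrays at 24 h lay 4.14% and 4.68% of the way, each set against the other arrays. On INO1 alone, replicate 1 lay -1.03% and replicate 2 lay 32.4% of the way. Values of the 10 genes that rest on this pair and move by over 1.5 times when either array is left out are given both ways where they are described. At 20%, replicates 1 and 2 of M2 nsf1∆ lay 86.2% and 83.1% of the way over the same 5488 probe sets. Those of M2 lay 100% and 85.7% of the way, each set against the other arrays. The part of these places in the early steps below was not tested.

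INO1, the inositol-3-phosphate synthase that turns glucose 6-phosphate into the inositol backbone, was low at 24 h and high at both later stages. In M2 its values were 8.48 and 8.72 at 24 h, then 12.24 and 12.35 at 20%, and finally 12.23, 12.10 and 12.31 at 85%. The 24 h arrays lay far below the others, and the arrays at 20% and 85% overlapped. The group mean was 3.70 higher at 20% than at 24 h, or 13.0-fold, which was the 7th largest increase of the 5449 genes. In M2 nsf1∆ the values were 8.56 and 9.80 at 24 h, then 12.17 and 12.20 at 20%, and finally 11.42, 11.76 and 11.95 at 85%. Here too both 24 h arrays were below all others, but they were 1.24 apart, a larger gap than 99.7% of probe sets had between these arrays. The mutant mean was 3.00 higher at 20%, or 8.01-fold, the 6th largest increase in that strain. Without replicate 1 the increase was 2.38, and without replicate 2 it was 3.62. From 20% to 85% INO1 differed by -0.09 in M2 and by -0.47 in M2 nsf1∆, where all arrays at 85% were below both at 20%.

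Ordered from low to high, the group means of INO1 were 8.60 ± 0.17 (SD, n = 2) for M2 at 24 h, 9.18 ± 0.87 (n = 2) for M2 nsf1∆ at 24 h, 11.71 ± 0.27 (n = 3) for M2 nsf1∆ at 85%, 12.18 ± 0.02 (n = 2) for M2 nsf1∆ at 20%, 12.21 ± 0.11 (n = 3) for M2 at 85% and 12.30 ± 0.08 (n = 2) for M2 at 20%. The arrays of both 24 h groups overlapped, as did those of M2 nsf1∆ at 20% with M2 at 85%, and those of M2 at 85% with M2 at 20%. Both gaps around M2 nsf1∆ at 85% were free of overlap.

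ITR1, the main inositol transporter of the plasma membrane, was also higher from 20% on, but by far less than INO1. In M2 it read 11.63 and 11.70 at 24 h, then 12.36 and 12.42 at 20%, and finally 12.33, 12.19 and 12.44 at 85%. The mutant gave 11.48 and 11.81, then 12.15 and 12.21, then 12.38, 12.01 and 12.13. The 24 h arrays were the lowest in both strains, and the arrays of the later stages overlapped. The increase to 20% was 0.73 in M2 and 0.53 in M2 nsf1∆. ITR2, the minor transporter of inositol, went the other way. Its values in M2 were 9.85 and 9.78 at 24 h, then 9.31 and 9.54 at 20%, and finally 8.66, 8.62 and 8.56 at 85%. In M2 nsf1∆ they were 9.60 and 9.62, then 9.53 and 9.47, then 8.60, 8.81 and 8.60. The stages did not overlap in either strain, and most of the difference came late, -0.81 in M2 and -0.83 in M2 nsf1∆ between 20% and 85%. The 2 transporters thus differed in opposite directions between 24 h and 20%.

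The subunits of the activator also moved apart. INO2, the subunit with the activation domain, read 7.41 and 7.09 at 24 h in M2, then 8.30 and 8.18 at 20%, and finally 8.45, 8.50 and 8.51 at 85%. The values in M2 nsf1∆ were 7.64 and 7.17, then 8.14 and 7.96, then 8.82, 8.48 and 8.44. It was higher at each later stage without overlap in both strains, by 0.99 and then 0.25 in M2 and by 0.64 and then 0.53 in M2 nsf1∆. The early step of the mutant was 0.87 without its replicate 1 at 24 h and 0.40 without replicate 2. INO4, the DNA-binding partner that INO2 needs, was lower at each later stage. Its values in M2 were 8.80 and 8.68, then 8.62 and 8.26, then 7.92, 8.30 and 7.87, and in M2 nsf1∆ they were 8.69 and 8.62, then 8.31 and 8.12, then 7.50, 7.79 and 7.64. In M2 the arrays at 20% and 85% overlapped, since 1 array at 20% was at 8.26 and 1 at 85% was at 8.30. From 24 h to 20% INO4 differed by -0.30 in M2 and -0.44 in M2 nsf1∆, and from 20% to 85% by -0.41 and -0.58. The M2 steps of INO4 were -0.48 and -0.23 without M2 replicate 1 at 20% and -0.11 and -0.59 without replicate 2.

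OPI1, the repressor, had the largest late change of the 10 genes in both strains. In M2 it read 9.71 and 9.64 at 24 h, then 10.37 and 10.35 at 20%, and finally 12.10, 11.97 and 12.11 at 85%. In M2 nsf1∆ it read 9.65 and 9.27, then 10.14 and 9.98, then 12.08, 12.00 and 12.07. No stages overlapped in either strain. The step to 20% was 0.69 in M2 and 0.60 in M2 nsf1∆, and the step from 20% to 85% was 1.70 (3.25-fold) and 2.00 (3.99-fold). At 85% the transcript of the repressor was thus at its highest on the same arrays on which INO1, its best known target, stayed near its highest level in M2.

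The 4 enzymes of the route from CDP-diacylglycerol to phosphatidylcholine were higher at 20% than at 24 h and lower again at 85%, with 1 exception in the mutant. CHO1, the phosphatidylserine synthase, had the largest early step among them. It read 11.04 and 11.06 at 24 h in M2, then 12.51 and 12.27 at 20%, and finally 11.43, 11.50 and 11.35 at 85%. On the mutant arrays it read 11.16 and 11.69, then 12.25 and 12.34, then 11.90, 11.18 and 10.99. The 20% arrays were the highest in both strains. The step up was 1.34 (2.53-fold) in M2 and 0.87 in M2 nsf1∆, and the step down was -0.96 and -0.94. The mutant's step up was 0.61 without its replicate 1 at 24 h and 1.13 without replicate 2.

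PSD1, the mitochondrial decarboxylase that makes phosphatidylethanolamine, was the exception. It read 9.79 and 9.80, then 10.23 and 10.04, then 9.37, 9.36 and 9.62 in M2. In M2 nsf1∆ it read 9.79 and 10.27, then 9.86 and 9.95, then 9.30, 9.30 and 9.53. In M2 it was 0.34 higher at 20% than at 24 h without overlap, whereas in M2 nsf1∆ both 20% arrays lay between the 24 h arrays and the mean differed by -0.13. That difference was -0.37 without replicate 1 of M2 nsf1∆ at 24 h and 0.11 without replicate 2, so its sign depended on which array was kept. Between 20% and 85% PSD1 differed by -0.68 in M2 and -0.53 in M2 nsf1∆.

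CHO2, which adds the first methyl group to phosphatidylethanolamine, read 9.89 and 9.98, then 10.64 and 10.62, then 9.66, 9.63 and 9.86 in M2. The mutant values were 9.93 and 10.19, then 10.72 and 10.76, then 9.04, 9.73 and 9.47. OPI3, which adds the remaining methyl groups, read 12.14 and 12.11, then 12.81 and 12.72, then 12.33, 12.48 and 12.38 in M2. In M2 nsf1∆ it read 12.28 and 12.50, then 13.11 and 13.07, then 12.20, 12.22 and 12.31. Both genes were highest on the 20% arrays of both strains. The early step was alike, at 0.70 and 0.68 for CHO2 and 0.64 and 0.70 for OPI3 in M2 and M2 nsf1∆. The estimate of the late step was larger in the mutant, at -0.91 and -1.33 for CHO2 and -0.36 and -0.85 for OPI3. For neither gene did this difference between the strains pass the interaction test given below. The mutant's late step of CHO2 ran from -1.49 to -1.14 over the fits without one array.

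**Figure D1:**
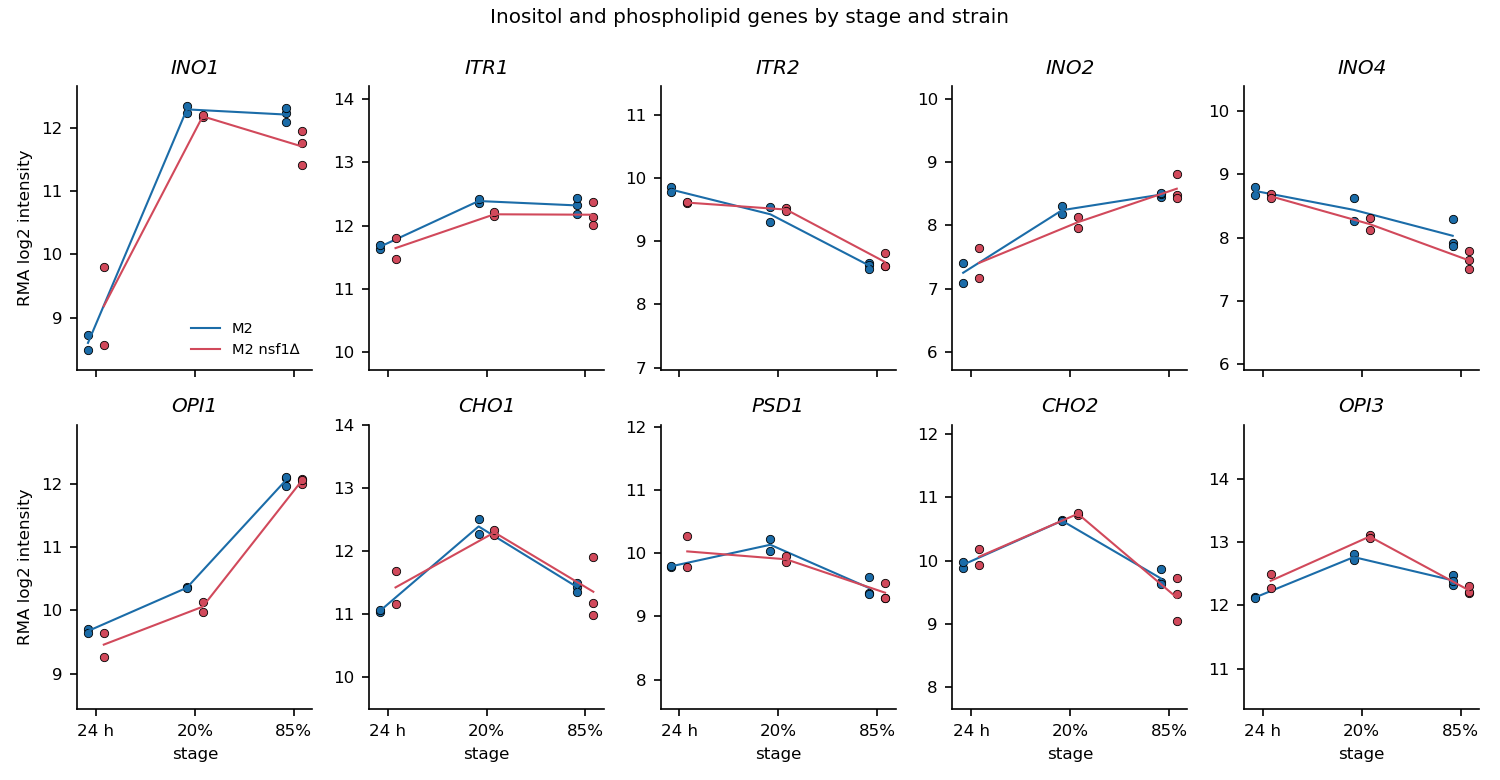
RMA log2 intensity of the 10 genes (vertical axes, which all span the same range) at 24 h and at 20% and 85% sugars fermented (horizontal axis). Points are arrays, lines join group means, and blue stands for M2 and red for M2 nsf1∆. INO1 steps up by 3.70 in M2 at 20% and stays high, OPI1 steps up at 85%, and CHO1, CHO2 and OPI3 peak at 20%.

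Counted over the 10 genes, 8 were higher and 2 lower at 20% than at 24 h in M2 with no overlap between the groups, beside 39.8% and 38% of all probe sets. In M2 nsf1∆ 7 were higher and 2 lower (38.2% and 35.8% of all). Between 20% and 85%, 2 were higher and 5 lower in M2 (38.1% and 37.6%), and 2 were higher and 7 lower in M2 nsf1∆ (37.9% and 40.3%). The early and late steps share the 20% arrays. The median change of the 10 genes was 0.69 early and -0.39 late in M2, beside 0.02 and 0.01 over all genes, and 0.62 and -0.55 in M2 nsf1∆, beside 0.02 and -0.03. Genes of other cell types of yeast moved with the stages as well. Of 10 sporulation genes 8 rose and 0 fell from 24 h to 20% in each strain by limma. Of all probe sets 26.5% rose in M2 and 19.9% in M2 nsf1∆ in this step. The sporulation genes had array means of 5.0 to 5.40 at 24 h and 6.0 to 6.18 at 20%. From 20% to 85%, 33.1% of all probe sets rose and 31.9% fell in M2, and 31.6% and 33.9% in M2 nsf1∆. In that step 7 sporulation genes rose and 1 fell in M2, and 6 rose and 0 fell in M2 nsf1∆. Of 10 haploid-specific genes, which a diploid represses, 7 rose and 0 fell in M2, and 8 rose and 1 fell in M2 nsf1∆. Their array means ran from 5.84 to 5.97 at 20% and from 6.89 to 7.29 at 85%. In M2, 2 of the 10 were at or under the background at 20% and 1 at 85%, and in M2 nsf1∆ 1 and 0. Of 5 a-specific genes 4 rose late in each strain, from array means of 5.36 to 5.69 to means of 7.43 to 7.72, and of 4 alpha-specific genes 2 rose and 1 fell. None of the sporulation, a-specific or alpha-specific genes was at or under the background in any group. The part of these genes' cell types in the changes above was not tested.

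Whether loss of NSF1 altered the 10 genes was tested with limma at each stage, in one fit of all 14 arrays with adjustment over the 5498 probe sets. None of the 10 passed the threshold of 0.05 at any stage. At 24 h 0 of 10 passed, beside 0.127% of all probe sets, and 1 was under 0.05 without adjustment, beside 9.8%. At 20% 0 of 10 passed, beside 0.346%, and 2 were under 0.05 without adjustment, beside 14.7%. At 85% 0 of 10 passed, beside 8.84% of all, and 1 was under 0.05 without adjustment, beside 25.8%. At 85% the methods' t-test put 1 of the 10 genes under 0.05, which was OPI3, beside 15.4% of all probe sets, and 0 after Benjamini-Hochberg adjustment, when 0% of all probe sets passed it. The limma adjusted p-values ran from 0.481 to 0.981 at 24 h, from 0.212 to 0.897 at 20% and from 0.102 to 0.973 at 85%.

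The intervals show what size of difference remains possible. The 95% intervals of the 10 genes had a median half-width of 0.36 at 24 h, 0.36 at 20% and 0.30 at 85% on the log2 scale. The point estimates ran from -0.21 to 0.58, from -0.30 to 0.33 and from -0.50 to 0.09. Simulated differences of 0.5 in the same design were recovered for 18% of genes at 24 h, 22% at 20% and 60% at 85%, and differences of 1 for 92%, 88% and 96%. The simulations called 157, 166 and 181 probe sets at these stages, whereas the real comparisons called 7, 19 and 486. Fewer calls make the adjusted threshold stricter, so the shares recovered at 24 h and 20% are upper limits. At 85% the real comparison called more than the simulation, so the shares there may be too low. All these shares are averages over randomly drawn probe sets. They may not hold for a single gene such as INO1, which had an SE of 0.29 at 24 h.

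INO1 had the widest interval of the 10 genes at each stage. At 24 h it was 0.58 higher in M2 nsf1∆ (SE 0.29, 95% interval -0.05 to 1.20, limma adjusted p = 0.534), with overlapping arrays. Without M2 nsf1∆ replicate 1 at 24 h this difference was 1.20 (limma adjusted p = 0.0152), and without replicate 2 it was -0.04. At 20% INO1 differed by -0.12 (interval -0.74 to 0.51, adjusted p = 0.89). At 85% it was lower in M2 nsf1∆, with a difference of -0.50 (SE 0.24, interval -1.01 to 0.01, adjusted p = 0.204), and all 3 mutant arrays lay below all 3 of M2. Its adjusted p at 85% was 0.0394 when either M2 nsf1∆ array at 24 h was left out, with the same difference of -0.50, as these fits estimate the spread without that pair of arrays.

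Among the regulators, INO4 had the smallest adjusted p of the 10 genes at 85%, where it was lower in M2 nsf1∆ on all 3 arrays. The difference was -0.39 (SE 0.14, interval -0.69 to -0.09, limma adjusted p = 0.102), and it was -0.25 without M2 replicate 2 at 85%. INO2 differed by 0.09 at 85% (interval -0.22 to 0.40, adjusted p = 0.743). OPI1 differed by -0.30 at 20% (interval -0.60 to -0.01, adjusted p = 0.32) with both mutant arrays below both of M2, and by -0.01 at 85% (interval -0.25 to 0.23, adjusted p = 0.973), which limits a difference at 85% to between 0.842-fold and 1.17-fold.

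Among the enzymes, OPI3 was higher in M2 nsf1∆ at the first stages and lower at the last. The differences were 0.27 at 24 h (interval 0.01 to 0.52, limma adjusted p = 0.481), 0.33 at 20% (interval 0.07 to 0.58, adjusted p = 0.212) and -0.16 at 85% (interval -0.37 to 0.05, adjusted p = 0.333). The arrays of both strains did not overlap at any of the 3 stages. At 24 h the difference of OPI3 was 0.37 without M2 nsf1∆ replicate 1 and 0.16 without replicate 2. CHO2 differed by -0.30 at 85% (interval -0.63 to 0.02, adjusted p = 0.232), and CHO1 by 0.37 at 24 h (interval -0.15 to 0.90, adjusted p = 0.646), where 1 of the 2 mutant arrays, replicate 2, was at 11.69. Without M2 nsf1∆ replicates 1 and 2 at 85% in turn, the difference of CHO2 was -0.12 and -0.46. Without the same-numbered mutant arrays at 24 h in turn, that of CHO1 was 0.64 and 0.11. PSD1 differed by 0.24, -0.23 and -0.07 at the 3 stages, and the first of these was 0.48 without M2 nsf1∆ replicate 1 at 24 h and 0.00 without replicate 2, while that at 20% ran from -0.32 to -0.14 over the fits without one array. The transporters differed by at most 0.21 in size, with ITR1 at -0.21 at 20% (interval -0.54 to 0.11) and ITR2 at -0.21 at 24 h (interval -0.48 to 0.06).

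The strains did not overlap for 3 of the 10 genes at 24 h (CHO1 and OPI3 higher and ITR2 lower in M2 nsf1∆), beside 41.6% of all probe sets. At 20% this held for 7 genes (CHO2 and OPI3 higher, INO1, ITR1, INO2, OPI1 and PSD1 lower), beside 50.2%. At 85% it held for 3 genes (INO1, INO4 and OPI3, all lower), beside 29.8%. These shares lay on both sides of those of all probe sets.

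**Figure D2:**
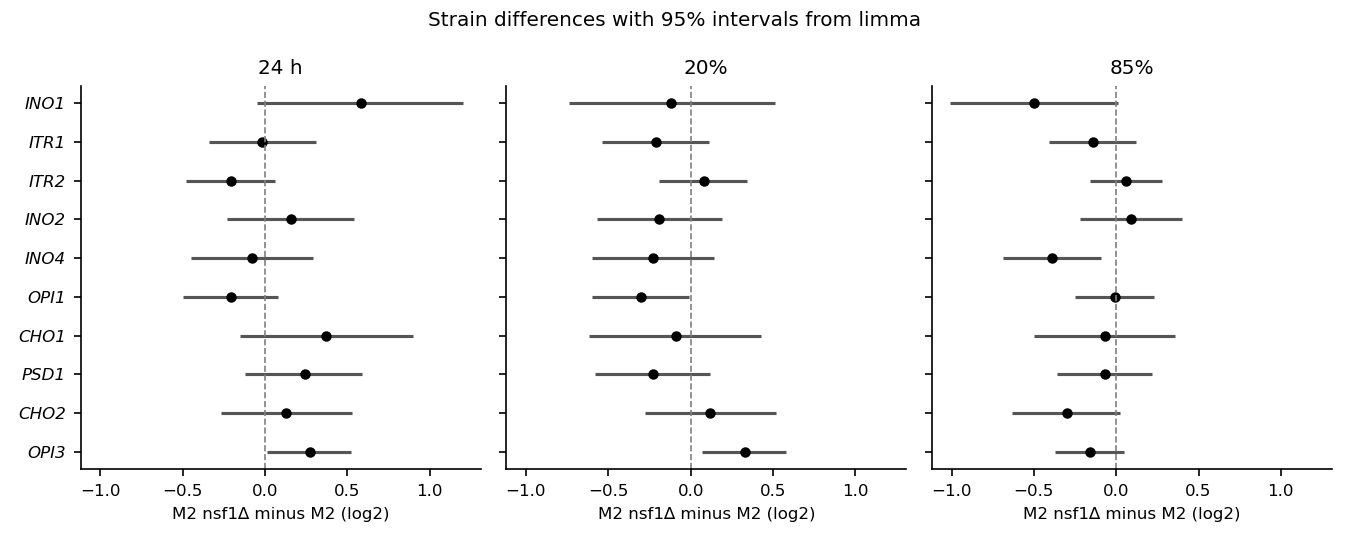
Difference between M2 nsf1∆ and M2 (horizontal axes, log2; points) with its 95% interval from limma (lines) for the 10 genes at 24 h, 20% and 85%. INO1 has an interval of -0.05 to 1.20 at 24 h, and at 85% the estimates of INO1 (-0.50) and INO4 (-0.39) are the lowest.

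Whether the strain difference itself changed between stages was tested as an interaction. This is the step of M2 nsf1∆ minus that of M2. It rests on the stage levels known when the 10 genes were chosen, so its p-values for these genes are descriptive. Between 24 h and 20% 0 of 10 genes passed by limma, beside 1.6% of all probe sets, and 0 were under 0.05 without adjustment, beside 15.5%, with adjusted p-values from 0.356 to 0.99. INO1 had the lowest estimate, -0.70 (SE 0.41, interval -1.58 to 0.19, limma adjusted p = 0.45). This estimate was -1.31 without M2 nsf1∆ replicate 1 at 24 h and -0.08 without replicate 2. Between 20% and 85% 0 of 10 passed, beside 0.2%, and 1 was under 0.05 without adjustment, beside 13.9%, with adjusted p-values from 0.201 to 0.98. That gene was OPI3, whose strain difference shifted by -0.49 (SE 0.15, interval -0.82 to -0.15, limma adjusted p = 0.201). The strain difference of CHO2 shifted by -0.42 (SE 0.24, interval -0.93 to 0.10, limma adjusted p = 0.45).

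A further 66 genes that use inositol, feed phosphatidic acid into the route, break phospholipids down, regulate the pathway or make fatty acids and inositol sphingolipids were tested over the stages. From 24 h to 20% in M2, 18 rose and 15 fell (27.3% and 22.7%, beside 26.5% and 26.4% of all probe sets). PAH1, the phosphatidic acid phosphatase, rose by 1.10 (limma adjusted p = 0.000296), followed by the acyltransferase GPT2 at 1.06, the repressor subunit UME6 at 0.93 and the cardiolipin-remodelling TAZ1 at 0.86. The acyltransferase SLC1 fell by 1.31 (adjusted p = 0.000152), the phospholipase PLB2 fell by 1.17, LCB1 of sphingolipid synthesis fell by 1.15 and the ethanolamine phosphotransferase EPT1 fell by 0.98. In M2 nsf1∆ 7 rose and 6 fell (10.6% and 9.09%, beside 19.9% and 18.3%). The M2 counts were 11 and 9 without M2 replicate 1 at 24 h, and the rise of GPT2 no longer passed without M2 replicate 1 at 20%. The count of rises in M2 nsf1∆ was 2 without its replicate 1 at 24 h or its replicate 2 at 20% and 3 without its replicate 1 at 20%, and the latter left 3 falls.

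From 20% to 85% the further genes fell more often than they rose, with 17 rises and 34 falls in M2 (25.8% and 51.5%, beside 33.1% and 31.9% of all probe sets) and 13 and 30 in M2 nsf1∆ (19.7% and 45.5%, beside 31.6% and 33.9%). Their median was -0.35 in M2 and -0.32 in M2 nsf1∆, beside 0.01 and -0.03 over all genes. Of the Kennedy route, which builds the same phospholipids from imported choline and ethanolamine, 5 of 7 genes fell in each strain. In this route 2 genes rose in M2 and 1 in M2 nsf1∆. All 3 fatty acid synthesis genes fell in both strains. The 8 inositol sphingolipid genes changed in both directions, with 4 rises and 3 falls in M2 and 3 and 2 in M2 nsf1∆. Their median was 0.38 in M2 and 0.42 in M2 nsf1∆, but the largest change among them was a fall in each strain. SAC1, the phosphoinositide phosphatase, fell by 2.28 in M2 (limma adjusted p = 9.38e-08), the diacylglycerol pyrophosphate phosphatase DPP1 fell by 2.21, the choline kinase CKI1 fell by 2.04 and the fatty acid synthase subunit FAS1 fell by 1.96. ARG82, an inositol polyphosphate kinase, rose by 2.38 (adjusted p = 4.25e-08), the phospholipase PLB3 by 2.20, the phosphatidylinositol phosphate kinase MSS4 by 1.00 and the acyltransferase SCT1 by 0.99. The count of rises was 11 in M2 without M2 replicate 1 at 20% and 8 in M2 nsf1∆ without its replicate 1 at 20%.

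**Figure D3:**
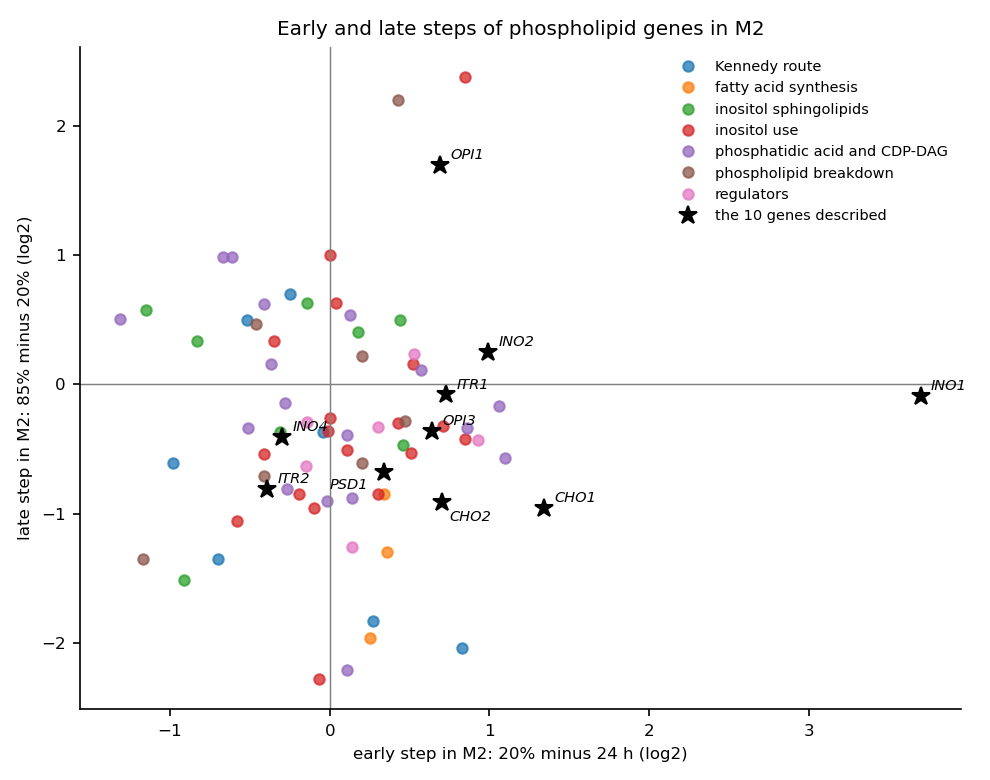
Change from 24 h to 20% (horizontal axis, log2) and from 20% to 85% (vertical axis, log2) in M2 for the 10 genes (stars, named) and 66 further phospholipid genes (dots, coloured by group). INO1 lies alone on the right at 3.70, and OPI1 is the star with the largest late increase, at 1.70. Both axes use the 20% arrays.

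Between the strains, 0 of the 66 passed at 24 h and 2 at 20%, beside 0.346% of all probe sets. The phosphatidylinositol kinase LSB6 was lower in M2 nsf1∆, with a difference of -0.83 (limma adjusted p = 0.0285), and NEM1, which activates PAH1, was 0.83 higher (adjusted p = 0.0324). Both calls were lost when any one of 4 arrays (LSB6) or 7 arrays (NEM1) was left out, with the replicate number as a block (adjusted p = 0.0507 each) and on the arrays of the contrast alone (0.0816 each). At 85% 10 of 66 passed (15.2%, beside 8.84%), where 0 of the 10 genes above had. CKI1 read 8.0, 7.93 and 8.21 in M2 and 7.38, 7.18 and 7.43 in M2 nsf1∆, with no overlap, a difference of -0.72 (limma adjusted p = 0.00308). ECT1 of the ethanolamine branch of the Kennedy route (-0.57), FAS1 (-0.76) and FAS2 (-0.51) were also lower, and the acyltransferases ALE1 (0.80) and SLC1 (0.58), the kinase FAB1 (0.44), the phosphatase INP53 (0.47) and the sphingolipid genes AUR1 (0.44) and CSH1 (0.70) were higher in M2 nsf1∆. The calls of CKI1, ECT1, ALE1 and CSH1 held whichever array was left out, and those of the other 6 did not. None of the 10 calls held under the methods' t-test after Benjamini-Hochberg adjustment (adjusted p from 0.211 to 0.342), under which 0% of all probe sets passed, and those of FAB1, INP53, AUR1, FAS1 and FAS2 were lost on the arrays of the contrast alone.

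The genes with group means most like those of INO1 over the 6 groups, each centred on its own mean, were YIG1, DIA3, BSC4, MPC54 and RNP1. The root mean square difference to INO1 was 0.34, 0.43, 0.44, 0.46 and 0.48 on the log2 scale. From 24 h to 20% in M2 these genes were higher by 4.03, 3.14, 4.34, 2.70 and 2.45. MPC54 encodes a part of the spindle pole body of meiosis and DIA3 a protein related to acid phosphatases. BSC4 and RNP1 read 3.34 and 3.47 in M2 at 24 h, within the background range, so that their increases are lower limits. None of the other 9 genes of the pathway was close to INO1 by this measure, which counts the size of a change as well as its direction. INO2 came nearest among them, at 1.09 and rank 365 of 5448 genes, and OPI1 followed at 1.19 and rank 667. ITR1, which like INO1 was lowest at 24 h in both strains but changed far less, came at 1.25 and rank 857.

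**Figure D4:**
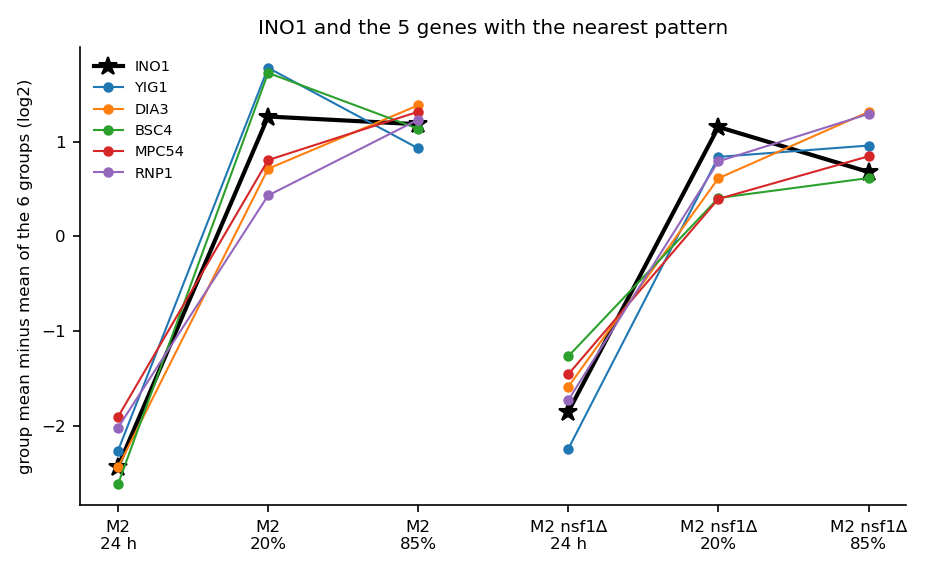
Group means of INO1 (stars) and of the 5 genes nearest to it (dots), each minus its own mean over the 6 groups (vertical axis, log2), for the 6 groups of strain and stage (horizontal axis). All 6 genes are low at 24 h and high later in both strains, and INO1 differs least from YIG1, with a root mean square difference of 0.34.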

How the data were processed

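RNA was hybridised to 14 Affymetrix Yeast Genome 2.0 arrays. The authors deposited one table of log2 intensities made with RMA: background correction, quantile normalization across arrays, and 1 summary value for the probes of each set. The version and settings are not given in the sources used here. Quantile normalization gives all arrays one distribution, so that changes are relative to the other genes. Of 10928 probe sets, 5498 that are annotated to 1 S. cerevisiae gene (5449 genes) were tested, 1747 of S. pombe genes gave the background, and 0 sample columns were dropped. For the later stages the labels give shares of total glucose, which the paper calls sugars fermented. The number of arrays limits the precision.

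Tests were run in limma 3.58.1 (R 4.3.3, 8 residual and 5.141 prior degrees of freedom), and p-values were adjusted over the 5498 probe sets by Benjamini and Hochberg's method, with a threshold of 0.05. Summaries and figures were made with Python 3.11.15, pandas 2.3.3, numpy 2.4.6 and matplotlib 3.10.9. The procedure was tested on simulated data with 50 changed genes at each size. The 10 genes, the further lists and the tests were chosen with earlier results of these data known. Named are all 10 genes, the 4 largest rises and falls among the further genes that passed in M2 at each step, every further gene that passed between strains, NSF1, and the 5 genes nearest to INO1. A gene with several probe sets was represented by the plain one. Results were recomputed with the replicate number as a block, without the dimmest 25% of probe sets, with arrays set to one median, after a second quantile normalization, with an intensity trend, with array weights, on the arrays of 1 contrast alone, without each array in turn, and with the methods' t-test at 85%. A crossed pairing of the replicate numbers was added after the data were seen.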

Additional observations from a re-analysis of the deposited data

Results flagged for a closer look

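For 2 of the further genes the strain difference changed between 24 h and 20%, by the interaction test of limma, beside 1.6% of all probe sets. LSB6, a phosphatidylinositol kinase, read 8.93 and 8.97 at 24 h and 9.43 and 9.52 at 20% in M2, and 9.58 and 9.67 at 24 h and 8.79 and 8.50 at 20% in M2 nsf1∆. The mutant arrays were above those of M2 at 24 h, with a strain difference of 0.68 that did not pass (adjusted p = 0.0777), and below them at 20% (-0.83, adjusted p = 0.0285), a shift of -1.51 (SE 0.18, adjusted p = 0.00336). At 85% it read 9.66, 9.64 and 9.61 in M2 and 9.60, 9.36 and 9.49 in M2 nsf1∆, a difference of -0.15 that did not pass (adjusted p = 0.393). DPP1 read 10.95 and 10.80 at 24 h and 10.93 and 11.03 at 20% in M2, and 11.34 and 11.24, then 10.54 and 10.43 in M2 nsf1∆, a shift of -0.91 (SE 0.20, adjusted p = 0.0382). Its adjusted p ran from 0.051 to 0.196 in the fits without any one of the arrays at 24 h or 20%, and it was 0.065 without M2 replicate 1 at 85%, 0.0681 after quantile normalization again and 0.052 on the arrays of the contrast alone.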

How the results depend on the processing

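The strain comparisons of the 10 genes kept their count of 0 in the fits with the replicate number as a block, without dim probe sets, with one median, with quantile normalization again, with an intensity trend, with array weights and with the arrays of 1 contrast alone. The methods' t-test with no adjustment gave 1 at 85%. Leaving out each array gave 0 to 1 at 24 h, 0 to 1 at 85% and 0 to 1 for the interaction of 20% with 24 h, each time through INO1 and M2 nsf1∆ at 24 h, and 0 elsewhere. Deviations of same-numbered arrays of both strains correlated at -0.13 at 24 h, -0.11 at 20%, and 0.03, 0.23 and 0.57 for replicates 1 to 3 at 85%. Only the last 2 were above 0.1, both at 85%, and the numbers were not taken as pairs. The block fits the same replicate effect to all stages, so it does not test a pairing of the strains within 85%. The block moved no count of the further genes by over 1.5 times, but LSB6 and NEM1 at 20% (adjusted p = 0.0507 each) and SLC1 at 85% (0.0565) were lost. With the mutant's numbers crossed at 24 h and 20%, chosen after the data were seen, 0 of the 10 genes passed, and 19 of the further genes rose and 16 fell early in M2.

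Over the fits without one array, the further genes gave 11 to 18 rises and 9 to 16 falls early in M2, 11 to 17 and 25 to 37 late in M2, 2 to 8 and 3 to 8 early in M2 nsf1∆, and 8 to 15 and 27 to 31 late. Strain differences whose sign changed were INO1 (-0.04 to 1.20), ITR1 (-0.18 to 0.15), INO2 (-0.08 to 0.39) and PSD1 (0.00 to 0.48) at 24 h, ITR2 (-0.04 to 0.19) and CHO1 (-0.21 to 0.03) at 20%, and ITR2 (-0.01 to 0.09), INO2 (-0.03 to 0.16), OPI1 (-0.06 to 0.02), CHO1 (-0.34 to 0.11) and PSD1 (-0.15 to 0.02) at 85%. Quantile normalization again gave 0.09 for OPI1 and 0.01 for CHO1 at 85%. The cause was not tested. The calls lost at 85% on leaving out an array were FAS1 (M2 nsf1∆ replicate 2, adjusted p = 0.059), FAS2 (M2 replicate 3, 0.0605), INP53 (M2 replicates 2 and 3, M2 nsf1∆ replicate 1) and, for 6, 7 and 10 different arrays, AUR1, FAB1 and SLC1. With 2 or 3 arrays a group, differences of 0.5 were mostly missed at 24 h and 20%.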
